A study of Mus musculus with 4 samples.

Results

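The genes of hepatic glycogen synthesis and breakdown described here are 9, Gys2, Gbe1, Gyg, Ugp2, Ppp1r3b, Ppp1r3c, Ppp1r3g, Pygl and Phka2, picked by name from the 35275 genes listed in the read count table. Each name matched 1 gene, and all 9 were among the 12180 genes with at least 1 CPM (counts scaled to a common library size) in at least 1 library. Liver RNA came from female mice that all carried the amyloidogenic Apoa2c allele. The sample labels give their strain as AKR/J and the genotype as Apoa2c congenic, whereas the methods of the study name the strain R1.P1-Apoa2c on a SAMR1 background. The 4 groups were VS (vehicle, sedentary), VI (vehicle, interval training, IT), FS (AApoAII fibrils, sedentary) and FI (AApoAII fibrils and IT). Fibrils were injected intravenously to seed AApoAII amyloidosis, and mice of the vehicle groups received buffer. Livers were collected at 26 weeks of age, after 16 weeks of treadmill running or of no training. Per the study, organs were taken within a day of the end of training. The last run and the 16 weeks of training therefore cannot be told apart. The sources used here do not give whether food was withheld beforehand. The livers of 4 mice per group were combined and extracted together. Each group is therefore 1 library, values carry no replicate error, and the spread between mice cannot be seen.

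Glycogen is the branched store of glucose from which the liver supplies the blood between meals. Its synthesis starts on glycogenin, which primes the chain, draws on UDP-glucose, and is carried out by glycogen synthase and the branching enzyme, while phosphorylase releases glucose 1-phosphate from the chain ends. Phosphorylase kinase switches phosphorylase on, and protein phosphatase 1 (PP1), brought to the glycogen particle by targeting subunits of the PPP1R3 family, removes phosphate from both enzymes, which activates the synthase and inactivates phosphorylase.

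Total counts lay between 23442935 in VS and 28814802 in FS, and a count of 0 allows up to 3 counts, or from 0.102 CPM (FS) to 0.127 CPM (VS). Hepatocyte markers (6 of 6 detected in every library) summed to between 154399 CPM in VS and 167150 CPM in FI, of which Alb held 119865 and 135778. Of the 6, 2 were highest in VS. Cyp2e1 had 11182 CPM in VS and 6011 in FS, and Ttr had 7283 in VS and 4857 in FI. All 13 skeletal muscle markers were highest in VS, where they summed to 80.9 CPM against 10.7 in VI, 1.15 in FS and 1.07 in FI, with 3 of them at 0 in FS and 8 at 0 in FI. Macrophage markers (6 of 7 found) summed to between 203 CPM in VS and 317 CPM in FS. Neutrophil markers summed to between 2.58 in VS and 17.4 in FS, of which Prtn3 held 0.593 in VS and 13.1 in FS. Adipose markers summed to between 2.88 in VS and 3.59 in FS, of which Cidec held 2.84 and 3.56. Pancreas markers summed to between 12.2 in FI and 22.8 in VS, of which Cela1 held 12.2 and 22.8. Of the 5 pancreas markers, 3 had no counts in any library. In bulk tissue, fewer cells of a type and less RNA per cell cannot be told apart.

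Ppp1r3g stood apart from the other members, with more transcript in both trained libraries than in either sedentary one. The 3 principal PP1 targeting genes followed 3 different patterns over the libraries, and the enzymes that build the glycogen chain differed less than these. Per unit of gene length, in FPKM (counts scaled by gene length and by the total of the library), Ugp2 had the highest mean level over the 4 libraries with 88.0, followed by Gys2 with 60.9, Pygl with 58.7, Ppp1r3b with 49.7 and Ppp1r3g with 26.5. The remaining members were lower, Gbe1 with 14.95, Ppp1r3c with 7.58, Phka2 with 4.54 and Gyg with 3.10 FPKM. The range over the libraries, as the difference between the highest and the lowest log2 CPM, was 2.11 for Ppp1r3g, 0.97 for Ppp1r3b and 0.84 for Phka2, and between 0.14 for Gys2 and 0.54 for Ppp1r3c in the other 6. Gbe1 (0.43) and Gyg (0.40) ranged about as widely as Pygl (0.39). Among the 12180 genes, 239 had a wider range than Ppp1r3g and 11641 a wider one than Gys2.

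**Figure D1:**
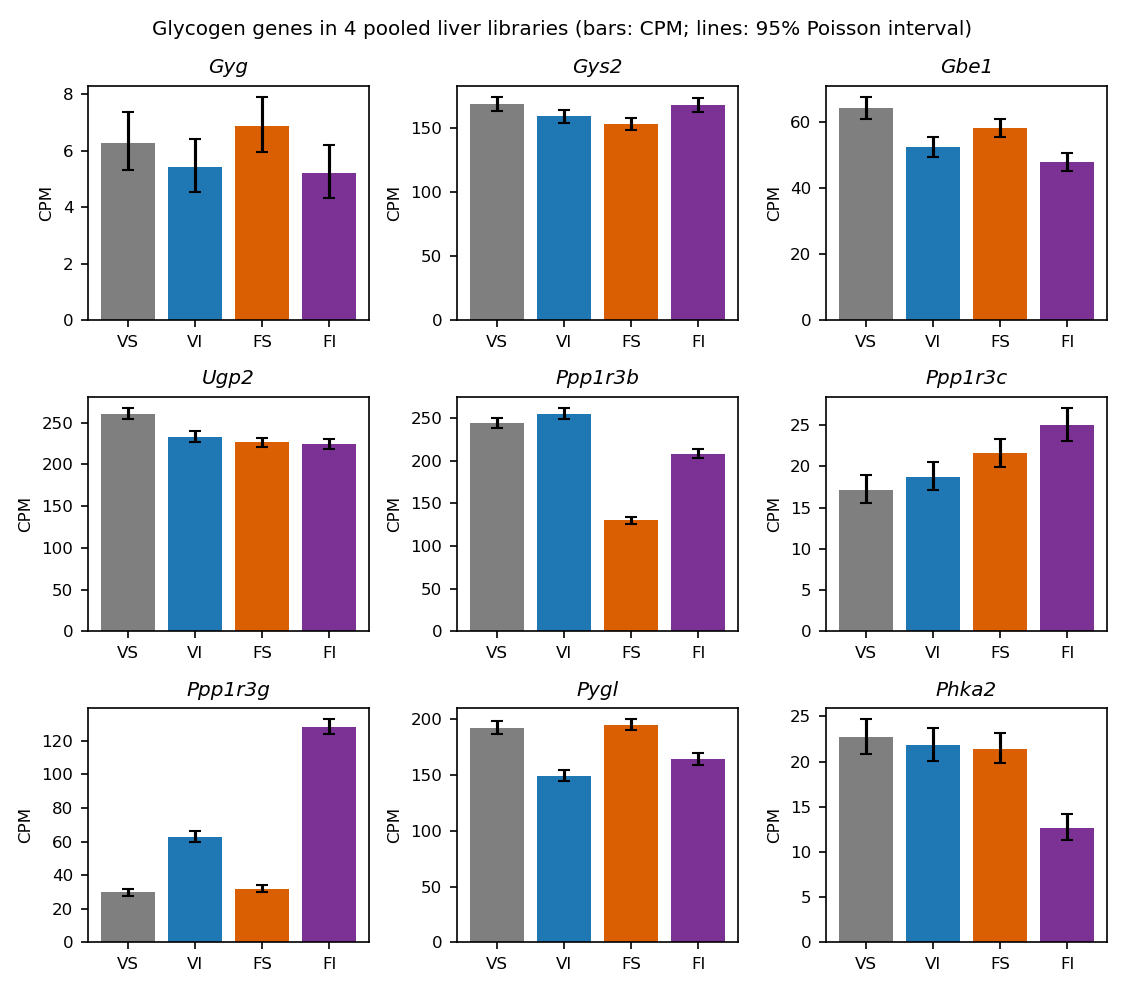
CPM of each of the 9 genes (vertical axes, different scale in each panel) in the 4 pooled libraries, with lines for the 95% exact Poisson interval, which covers counting error only. Ppp1r3g is highest in FI with 128 CPM, Ppp1r3b is lowest in FS with 129.9 CPM, and Gys2 stays between 153 and 169 CPM.

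Ppp1r3g encodes a glycogen-targeting subunit of PP1 whose liver transcript is known to rise in fasting. It lies on chromosome 13 from 35958839 to 35970388 on the plus strand (mm10, as for all gene spans given here from the count table). Its promoter is shown because Ppp1r3g was the member with the widest range over the libraries. The window of 300 bases runs from 250 bases before to 50 after the start in RefSeq (GRCm38.p6, chr13:35967656-35967955, plus strand, printed 5′ to 3′), a start inside the span that the count table gives for the gene, and capitals mark a CRE half-site, TGACG, 40 bases before that start.
Ppp1r3g: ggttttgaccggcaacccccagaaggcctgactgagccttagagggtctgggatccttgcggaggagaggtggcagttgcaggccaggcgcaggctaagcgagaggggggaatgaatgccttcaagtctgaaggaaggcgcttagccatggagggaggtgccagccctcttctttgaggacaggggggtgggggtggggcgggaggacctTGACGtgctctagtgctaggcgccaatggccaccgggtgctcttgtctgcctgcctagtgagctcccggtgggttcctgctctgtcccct
The half-site, searched on both strands, is found in 20.8% of the 32851 RefSeq promoter windows of this length, and the match describes letters only. Among the members it was also found in the windows of Pygl, on the opposite strand 44 bases before the start, and of Gyg, 12 bases after it.

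Reads on Ppp1r3g numbered 703 in VS, 942 in FS, 1530 in VI and 3104 in FI. These correspond to 29.8 CPM (95% exact Poisson interval 27.6 to 32.1) in VS, 31.9 (29.9 to 34.0) in FS, 62.8 (59.7 to 66.0) in VI and 128 (124 to 133) in FI. The levels were ordered VS, FS, VI and FI, and VS and FS could not be separated by counting error, with a log2 ratio of 0.10 (−0.04 to 0.24). VI exceeded VS 2.11-fold, or by 1.08 on the log2 scale, with a 95% counting interval (exact conditional binomial) of 0.95 to 1.21. FI exceeded FS 4.02-fold, or by 2.01 (1.90 to 2.11). Of 12180 genes ordered from the highest log2 ratio down, it was at rank 162 for VI against VS and at rank 22 for FI against FS. Between the trained libraries, FI was higher than VI by a log2 ratio of 1.03 (0.94 to 1.12). The log2 ratio with IT was therefore larger in fibril than in vehicle livers by 0.93 (0.76 to 1.10, counting error), and FI held 128 CPM where VI plus FS minus VS comes to 64.9 CPM. An additive model of IT and amyloidosis was fitted to 11760 genes with edgeR's quasi-likelihood test, which leaves 1 residual degree of freedom, the interaction, to estimate error. In this model Ppp1r3g rose with IT by 1.55 on the log2 scale (SE 0.21), and the edgeR quasi-likelihood p was 0.0303 after Benjamini-Hochberg adjustment, with both trained libraries above their sedentary partners. It was the only one of the 9 members called for IT in this model, which called 1.34% of all genes fitted. Its term for amyloidosis was 0.58 (SE 0.21, adjusted p = 0.178, same edgeR test), which did not pass here but did without the filter on low counts (adjusted p = 0.000225). Muscle markers summed to 1.07 and 1.15 CPM in FI and FS, the pair with the larger ratio. For VI and VS, the sums were 10.7 and 80.9 CPM. The part of muscle RNA, or of other cell types, in either ratio of Ppp1r3g was not tested.

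Ppp1r3b, on chromosome 8 from 35375741 to 35388124, encodes the liver targeting subunit known as GL, through which phosphorylase a restrains the phosphatase. It had 5762 counts in VS, 3835 in FS, 6213 in VI and 5040 in FI, or 244, 129.9, 255 and 208 CPM. FS was the low library, and VS and VI lay close together. The log2 ratio of FS to VS was −0.91 (−0.97 to −0.85). That of FI to FS was 0.68 (0.62 to 0.74) and that of FI to VI −0.29 (−0.35 to −0.24). In vehicle livers the log2 ratio of VI to VS was 0.06 (0.01 to 0.12). The log2 ratio with IT thus differed between fibril and vehicle livers by 0.62 (0.54 to 0.70, counting error). The additive model gave −0.60 with amyloidosis (SE 0.16) at an adjusted p of 0.0836 by the edgeR test, lower in both fibril libraries and short of the threshold, and 0.37 with IT (SE 0.16, adjusted p = 0.343, same test). Ppp1r3b was called for amyloidosis in edgeR on total counts (adjusted p = 0.0384) and without the filter on low counts (adjusted p = 0.000151) and by DESeq2 (adjusted p = 0.0395). It was not called by limma-voom (adjusted p = 0.0511) or in the other edgeR settings tried (adjusted p from 0.0614 to 0.0946). Macrophage markers summed to 317 CPM in FS and 203 CPM in VS, and their part in this difference was not tested. In the edgeR fit with TMM scaling and the filter at 1 CPM, no member was called for amyloidosis, against 4.59% of all genes fitted, and 3 of 9 members had an unadjusted p below 0.05, as had 2482 of 11760 genes.

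Ppp1r3c, on chromosome 19 from 36731737 to 36736653, encodes the targeting subunit PTG, which binds glycogen synthase and phosphorylase as well as PP1. It had 405 counts in VS, 638 in FS, 457 in VI and 604 in FI, or 17.1, 21.6, 18.8 and 24.97 CPM. Both fibril libraries lay above both vehicle libraries, with log2 ratios of 0.33 (0.15 to 0.52) among sedentary and 0.41 (0.24 to 0.59) among trained mice. The ratios with IT were smaller, 0.13 (−0.07 to 0.33) in vehicle livers, where the interval holds 0, and 0.21 (0.05 to 0.37) in fibril livers. Neither term of the additive model passed (0.37 with amyloidosis, adjusted p = 0.152; 0.17 with IT, adjusted p = 0.608; edgeR). Its promoter is printed for comparison with that of its family member Ppp1r3g (RefSeq, GRCm38.p6, chr19:36736555-36736854, minus strand, 5′ to 3′), and capitals mark an E-box, CACGTG, 104 bases before the start.
Ppp1r3c: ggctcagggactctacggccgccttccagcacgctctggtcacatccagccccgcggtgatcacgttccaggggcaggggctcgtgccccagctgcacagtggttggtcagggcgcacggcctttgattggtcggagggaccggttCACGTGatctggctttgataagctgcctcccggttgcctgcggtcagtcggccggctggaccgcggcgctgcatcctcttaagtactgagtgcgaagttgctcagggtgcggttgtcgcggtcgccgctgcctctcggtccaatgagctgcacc
An E-box is found in 7.15% of all such windows. The window of Ppp1r3c holds 26 CpG dinucleotides and that of Ppp1r3g 10, where the median of all windows is 7. The E-box and the CRE half-site each occur in one of these windows and not in the other.

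The make-up of the targeting subunits can be read within each library, free of any scaling between libraries. Ppp1r3g over Ppp1r3b, per gene length, was 0.217 (95% counting interval 0.201 to 0.235) in VS, 0.438 (0.407 to 0.470) in FS, 0.439 (0.415 to 0.464) in VI and 1.10 (1.05 to 1.15) in FI. FI was thus the one library in which Ppp1r3g exceeded Ppp1r3b per gene length. In CPM, Ppp1r3b was higher in FI, with 208 against 128 for Ppp1r3g. The ratio rests on gene lengths of 4206 bases for Ppp1r3b and 2361 for Ppp1r3g, and its interval covers counting error only. VI and FS had nearly the same ratio, VI with more Ppp1r3g than VS and FS with less Ppp1r3b. The summed FPKM of Ppp1r3b, Ppp1r3c and Ppp1r3g was 77.5 in VS, 53.6 in FS, 93.5 in VI and 110 in FI. Unlike the ratios and percents, that sum depends on the scaling by the total of each library. Ppp1r3g made up 16.4% of that sum in VS, 25.8% in FS, 28.3% in VI and 48.1% in FI, and Ppp1r3c between 7.33% in VI and 15.2% in FS. The other targeting subunits measured were scarce, with at most 0.296 CPM for Ppp1r3a, 0.644 for Ppp1r3d, 1.31 for Ppp1r3e and 0.537 for Ppp1r3f.

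**Figure D2:**
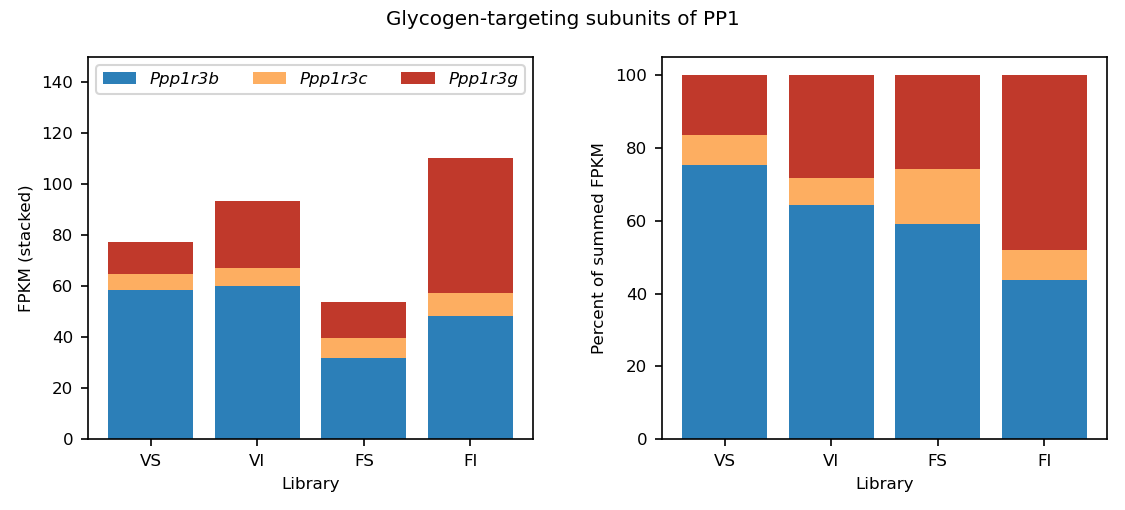
Stacked FPKM (left) and percent of the summed FPKM (right) of the glycogen-targeting subunit genes Ppp1r3b, Ppp1r3c and Ppp1r3g in the 4 libraries, without error bars. The sum is lowest in FS with 53.6 and highest in FI with 110 FPKM, and the part of Ppp1r3g is 48.1% in FI.

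The enzymes that make the chain differed less than the targeting subunits. Gyg, on chromosome 3 from 20122084 to 20155317, encodes glycogenin, and on average had the lowest level per gene length. It had 148 counts in VS, 203 in FS, 132 in VI and 126 in FI, or 6.27, 6.88, 5.42 and 5.21 CPM. No neighbours in its order of levels were separated by counting error. Of the 4 contrasts of Gyg, only FI versus FS had an interval without 0, −0.40 (−0.73 to −0.07). Ugp2, on chromosome 11 from 21321138 to 21371201, encodes the pyrophosphorylase that makes UDP-glucose, and had 260.6 CPM in VS, 226 in FS, 233 in VI and 224 in FI. VS was above the other libraries, by a log2 ratio of 0.16 (0.11 to 0.21) over VI. The other 3, in the order FI, FS and VI, could not be separated from their neighbours. The log2 ratio of FI to VI, which are not neighbours, was −0.058 (−0.112 to −0.004). Between FI and FS the log2 ratio of Ugp2 was −0.01 (−0.07 to 0.04).

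Gys2, on chromosome 6 from 142422613 to 142473109, encodes liver glycogen synthase, the enzyme that extends the chain. It had 3980 counts in VS, 4509 in FS, 3874 in VI and 4055 in FI, or 169, 153, 159 and 168 CPM, which made it the steadiest member. With IT its log2 ratio was −0.08 (−0.15 to −0.02) in vehicle livers and 0.13 (0.07 to 0.20) in fibril livers, both small and opposite in direction. On total counts in place of TMM scaling, the FI versus FS value was 0.06. Gbe1, on chromosome 16 from 70313949 to 70569716, encodes the branching enzyme and had 64.3 CPM in VS, 58.2 in FS, 52.5 in VI and 47.9 in FI. The trained library was the lower one of each pair, with log2 ratios of −0.29 (−0.40 to −0.19) in vehicle and −0.28 (−0.39 to −0.17) in fibril livers, which differed from each other by 0.01 (−0.14 to 0.16). For IT the model term of Gbe1 was −0.29 (SE 0.11), and its adjusted p of 0.287 by the edgeR test was short of the threshold.

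On the side of breakdown, Pygl was lower in both trained libraries and Phka2 was low in FI. Pygl, on chromosome 12 from 70190811 to 70231488, encodes liver glycogen phosphorylase, and had 4550 counts in VS, 5762 in FS, 3640 in VI and 3983 in FI, or 193, 195, 149 and 165 CPM. The sedentary libraries did not separate from each other, with a log2 ratio of FS to VS of 0.02 (−0.04 to 0.08). With IT the log2 ratio of Pygl was −0.37 (−0.43 to −0.30) in vehicle and −0.25 (−0.30 to −0.19) in fibril livers. Its model term for IT, −0.31 (SE 0.11), was not called, with an adjusted p of 0.283 by the edgeR test. Set against Gys2 within a library and per gene length, Pygl was at 1.02 (0.973 to 1.06) in VS, 1.13 (1.09 to 1.18) in FS, 0.834 (0.797 to 0.873) in VI and 0.872 (0.835 to 0.911) in FI. The intervals of both trained libraries were below 1, that of VS held 1 and that of FS was above it. Where the ratios lie relative to 1 rests on gene lengths of 2992 bases for Pygl and 2657 for Gys2. The intervals cover counting error only.

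Phka2, on chromosome X from 160502166 to 160598878, encodes the liver form of the regulatory alpha subunit of phosphorylase kinase. It had 536 counts in VS, 633 in FS, 532 in VI and 307 in FI, or 22.7, 21.4, 21.8 and 12.7 CPM. VS, VI and FS could not be told apart by counting error, and FI was below them. The log2 ratio was −0.76 (−0.96 to −0.56) in FI versus FS and −0.78 (−0.99 to −0.58) in FI versus VI, against −0.06 (−0.23 to 0.12) in VI versus VS. Set against vehicle livers, fibril livers had a log2 ratio with IT that differed by −0.70 (−0.96 to −0.44, counting error), opposite in sign to Ppp1r3b and Ppp1r3g. Neither model term was called, that for IT being −0.40 (SE 0.18) and that for amyloidosis −0.42 (SE 0.18), with adjusted p of 0.374 and 0.238 by the edgeR test. Of the other subunit genes of the kinase, Phkb had 14.4 CPM in FI and 16.0 in FS, Phkg2 had 10.4 and 11.7, and Phka1 had 5.42 and 6.27, and each counting interval of these log2 ratios held 0. Phkg1, with 9 and 5 counts, was too scarce to compare.

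Counted by contrast, 1 of the 9 members was beyond 2-fold in VI versus VS, where 3.44% of all 12180 genes were, and 1 in FI versus FS, where 4.28% were. The same was found for 1 member in FI versus VI, against 4.54% of all genes, and for none in FS versus VS, against 5.80%. The member was Ppp1r3g each time. These contrasts overlap in their libraries, since VS serves VI and FS alike and FI is set against both FS and VI. Counting intervals without 0 were common at this depth. Such intervals narrow as counts rise, and all genes were not matched to the members for counts, so their shares do not compare directly. Intervals without 0 were found for 6 members and 44.0% of all genes in VI versus VS, 8 members and 48.2% in FI versus FS, 5 members and 52.9% in FS versus VS, and 8 members and 46.9% in FI versus VI. The median log2 ratio of the members was −0.08 in VI versus VS, −0.01 in FI versus FS, −0.08 in FS versus VS and −0.06 in FI versus VI, where the medians over all genes were 0.00, 0.00, 0.02 and 0.01. The members had no common direction in any of these contrasts, with between 3 and 4 of them higher and between 5 and 6 lower. Of the 9 genes, 4 had an unadjusted p below 0.05 for IT in the additive model (Gbe1, Ppp1r3b, Ppp1r3g and Pygl), and 1710 of 11760 genes did so.

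**Figure D3:**
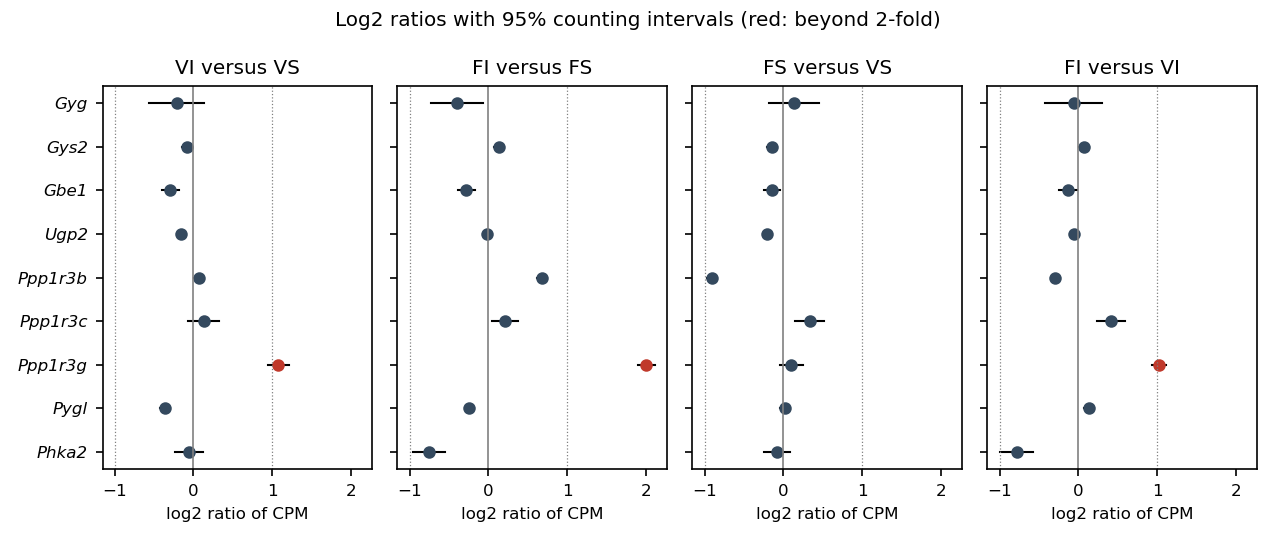
Log2 ratios of CPM (horizontal axes) of the 9 genes in the 4 contrasts, with lines for 95% counting intervals, dotted lines at 2-fold and red points beyond it. Ppp1r3g is red in VI versus VS (1.08), FI versus FS (2.01) and FI versus VI (1.03), and no gene is red in FS versus VS.

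**Figure D4:**
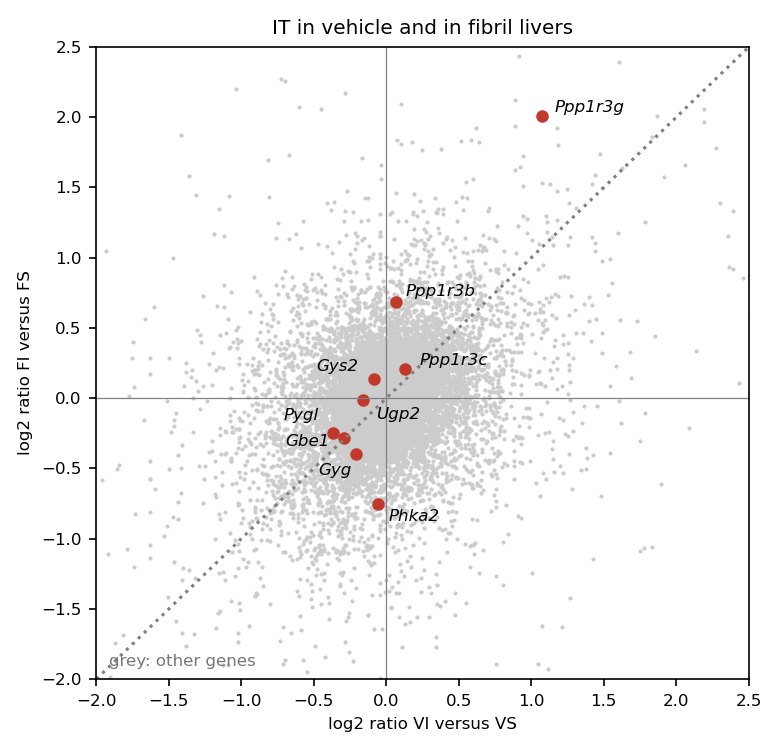
Log2 ratio with IT in vehicle livers (horizontal) and in fibril livers (vertical), with the 9 genes in red, other genes in grey and the dotted line where both ratios are equal. Of 12180 genes 88 lie outside the axes. Ppp1r3g (1.08 and 2.01) and Ppp1r3b (0.06 and 0.68) lie above the dotted line and Phka2 (−0.06 and −0.76) below it.

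A wider list of 42 genes held the other enzymes of glycogen turnover, PP1 subunits, kinases and receptors upstream, genes of glucose 6-phosphate entry and exit, and other users of UDP-glucose. Of these, 38 had at least 1 CPM in a library and 38 were fitted in the additive model, where 1 was called for IT and 2 for amyloidosis, all lower, against 1.34% and 4.59% of all genes fitted. Stbd1, which encodes a glycogen-binding protein linked to the delivery of glycogen to lysosomes, was at 109 CPM in VS, 84.0 in FS, 68.7 in VI and 38.6 in FI, and fell with IT by 0.89 on the log2 scale (SE 0.14), at an adjusted p of 0.0308 by the edgeR test. It was the one gene of the list beyond 2-fold downward in FI versus FS, with a log2 ratio of −1.12 (−1.23 to −1.01), and lower in both trained libraries. Adra1b, the alpha-1B adrenergic receptor through which catecholamines stimulate glycogen breakdown in liver, was at 109.9 CPM in VS, 52.6 in FS, 87.8 in VI and 57.1 in FI, and fell with amyloidosis by 0.84 (SE 0.13, adjusted p = 0.0165, same edgeR test). Galk1, galactokinase, was at 85.5, 47.1, 74.0 and 46.8 CPM in the same order, and fell with amyloidosis by 0.76 (SE 0.11, adjusted p = 0.0134, same edgeR test). Both were lower in both fibril libraries.

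Other genes of the wider list passed 2-fold in single contrasts without being called in the additive model. Among them was G6pc, which the paper reports as raised by exercise, in its own sequencing test and by qPCR in individual mice. G6pc, the catalytic subunit of glucose 6-phosphatase, had 206 CPM in VS, 181 in FS, 381 in VI and 694 in FI, a log2 ratio of 1.94 (1.89 to 1.98) in FI versus FS and an IT term of 1.41 (SE 0.24), whose adjusted p of 0.0542 by the edgeR test was just short of the threshold. Ppp1r3e was higher in VI than in VS by 1.12 (0.20 to 2.17), and Nhlrc1 in FI than in VI by 1.17 (0.26 to 2.22), both from at most 32 counts. The number of genes of the wider list beyond 2-fold was 3 in VI versus VS, 2 in FI versus FS, 4 in FS versus VS and 2 in FI versus VI, of 38 genes in each, where the shares of all genes were 3.44%, 4.28%, 5.80% and 4.54% in the same order.

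Several genes of the list stayed within 2-fold. The phosphoglucomutase genes are given under the symbols of the deposited counts. Pgm2 (chromosome 4) had between 175 CPM in FS and 252 CPM in VI and Pgm1 (chromosome 5) between 3.47 CPM in VS and 5.58 CPM in FI. Phkb lay between 13.3 and 16.0 CPM and Phkg2 between 8.91 and 11.7 CPM, each lowest in VI and highest in FS. The synthase kinases Gsk3a and Gsk3b lay between 25.9 and 33.7 CPM and between 21.7 and 31.5 CPM.

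Forms of the enzymes that are typical of other tissues were scarce. Pygm, muscle phosphorylase, was at 4.28 CPM in VS, 1.02 in FS, 0.657 in VI and 1.07 in FI, and VS was also the library in which the 13 muscle markers were highest. Against VS, the log2 ratio of Pygm was −2.67 (−3.56 to −1.93) for VI and −2.06 (−2.71 to −1.47) for FS. The part of muscle RNA in these ratios was not tested. Gys1, the synthase of muscle and most other tissues, was at 2.92, 2.44, 1.396 and 3.22 CPM in VS, FS, VI and FI, and Pygb, brain phosphorylase, at 3.64, 5.05, 2.96 and 3.84 CPM. Gys1 differed beyond 2-fold in VI versus VS (−1.06, −1.70 to −0.45) and in FI versus VI (1.20, 0.61 to 1.83), so VI was its low library. Ugp2 and Gyg are also used by muscle, and the part of muscle RNA in their ratios against VS was not tested either.

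The genes most like the members of widest range were named from 9348 genes with at least 5 CPM in a library, by the distance between log2 CPM values centred over the 4 libraries. For Ppp1r3g the nearest were Plin5 (distance 0.258), G6pc (0.269) and Nr4a1 (0.437). Plin5, a lipid droplet coat protein of oxidative tissues, had 60.7 CPM in VS, 75.3 in FS, 117 in VI and 249 in FI. Nr4a1, an orphan nuclear receptor gene induced by cyclic AMP, had 1.91, 2.51, 5.13 and 7.23 CPM in the same order. For Ppp1r3b they were Rab30 (0.0805), Hsd17b11 (0.0916) and Tec (0.117), all lowest in FS, and Rab30 had 33.6 CPM in VS, 18.0 in FS, 36.0 in VI and 30.8 in FI. With 4 points per gene, the distance describes these libraries only.

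**Figure D5:**
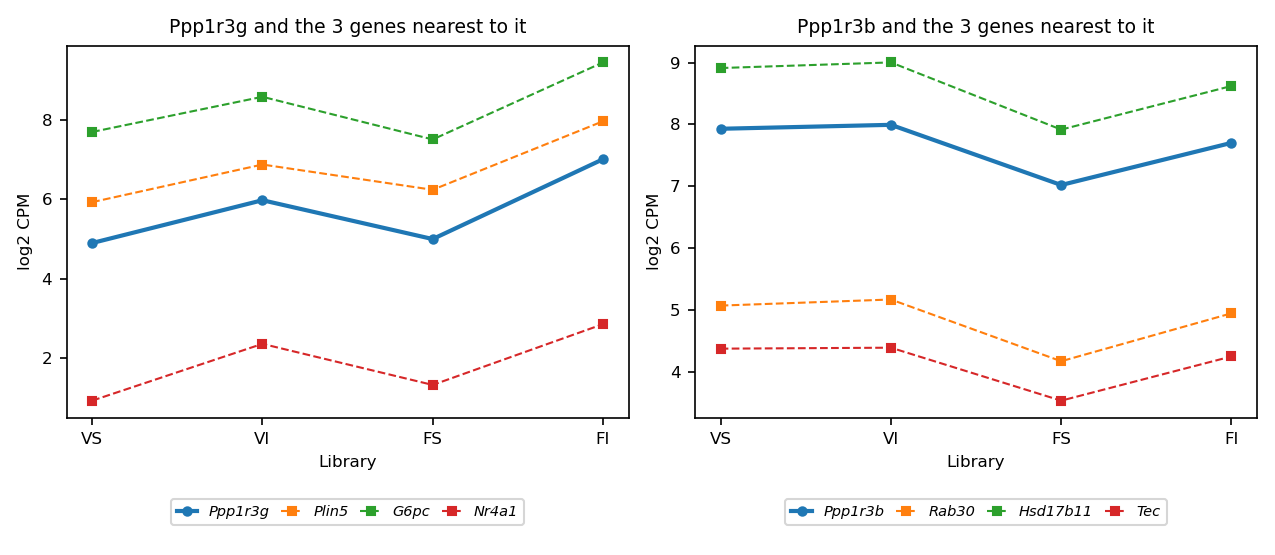
Log2 CPM in the 4 libraries of Ppp1r3g (left) and Ppp1r3b (right), as thick lines, with the 3 genes nearest to each as dashed lines, which only join the points of a gene. Plin5, G6pc and Nr4a1 peak in FI as Ppp1r3g does, and Rab30, Hsd17b11 and Tec are lowest in FS as Ppp1r3b is.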

How the data were processed

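Liver RNA of 4 groups was sequenced as 1 pooled library per group. The authors deposited raw read counts per gene and FPKM values. All FPKM above 0 were within 0.1% of the count divided by gene length and total count. Per the submitters' processing notes, fastp 0.23.2, STAR 2.5, HTSeq 0.6.1 and mm10 were used. The sources used here do not give the strand setting of the counting. Genes overlapping Pygl, Ugp2 and Phka2 on the opposite strand had at most 6 counts. Of the 9 members, 7 have the coordinates of GENCODE M21 (GRCm38), Ppp1r3b and Ppp1r3c being the exceptions.

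Tools were edgeR 4.0.16, DESeq2 1.42.0 and limma 3.58.1 under R 4.3.3, and Python 3.11.15. Libraries were scaled by TMM (factors 0.975 to 1.02). For log2 ratios 0.5 counts were added, and their 95% intervals were exact conditional binomial ones. Differences between log2 ratios used a normal interval from the 4 counts. Intervals cover counting error only, as no molecular identifiers are named and reads may repeat a molecule. With 1 library per group the contrasts are untested, and genes beyond 2-fold were counted. The additive model (robust quasi-likelihood, Benjamini-Hochberg) used 11760 genes that reached 1 CPM in 2 or more libraries. It was also run on simulated counts with changes for IT only and no interaction. Those do not cover genes whose ratio with IT differs between fibril and vehicle livers. The SE of the model terms was derived as the absolute log2 change divided by the square root of the quasi-likelihood F statistic. Members, gene lists (wider pathway and 6 marker lists) and motifs were chosen with earlier results of these data known.

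All 9 members were named, as were genes of the wider list beyond 2-fold and 11 fixed ones, and the 3 genes nearest to the 2 members of widest range. Some genes of the wider list that this rule names are not reported here. Promoters (RefSeq) were matched for 7 members by symbol, not for Gys2 and Ppp1r3b. An E-box (CACGTG), a CRE half-site (TGACG), a FOXO element (GTAAACA) and a TATA box (TATAAA) were searched on both strands, and the last 2 were in no member window. Alternatives were other scalings, FPKM with pseudocounts of 1 and 0.1, other filters, a 1.5-fold threshold, DESeq2, limma-voom and a fit without robust estimation.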

Additional observations from a re-analysis of the deposited data

Results flagged for a closer look

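Gys2 was picked out because its log2 ratios for the same factor had opposite directions, with counting intervals that hold no 0 under TMM scaling. It was lower in VI than in VS (−0.08) and higher in FI than in FS (0.13), and it was lower in FS than in VS (−0.14) and higher in FI than in VI (0.08). The difference of the ratios was 0.218 (0.130 to 0.307, counting error) in both cases, which is 1 value seen from both factors. On total counts the ratios that rose were smaller, 0.06 for FI versus FS and 0.05 for FI versus VI. Under TMM scaling the interval of FI versus VI, 0.01 to 0.14, already had its lower end close to 0. No interval on total counts is given here, so intervals without 0 are shown for TMM scaling only. With 1 library per group the difference was not tested across mice.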

How the results depend on the processing

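The count of members beyond 2-fold stayed within 1.5 times its value in 24 of 28 alternatives. A 1.5-fold threshold gave 3 members in FI versus FS, 1 in FS versus VS and 2 in FI versus VI, and FPKM with a pseudocount of 1 gave 0 in FI versus VI. For IT, 1 member, Ppp1r3g, was called under each of the 8 settings of the additive model, with adjusted p from 4.57e-27 (no filter) and 1.37e-08 (DESeq2) to 0.0423 (at least 5 CPM). For amyloidosis, where none was called, 1 member (Ppp1r3b) was called on total counts and by DESeq2, and 2 (Ppp1r3b and Ppp1r3g) with no filter beyond 1 count in at least 2 libraries. The IT term of Gys2, 0.0253, turned to −0.0203 on total counts. Over all genes, the 157 genes called for IT became 241 with DESeq2 size factors, 274 with total counts, 242 by limma-voom, 765 with no filter and 91 with a filter at 5 CPM. The 540 called for amyloidosis became 1557 with no filter. Genes beyond 2-fold numbered 419, 521, 706 and 553 for IT in vehicle and in fibril livers and for fibrils in sedentary and in trained mice. They became 4030, 4177, 4567 and 4197 with no filter, 144, 203, 353 and 229 at 5 CPM, 107, 117, 242 and 139 on FPKM with a pseudocount of 1, and 1418, 1647, 2140 and 1702 at 1.5-fold. With a pseudocount of 0.1 VI versus VS gave 269. The cause of these shifts was not tested beyond the settings' own construction. Of the members' single log2 ratios, 131 of 144 stayed inside their counting interval. No library could be left out, since each group has 1, and the additive model would keep no residual degree of freedom. No paired analysis was possible because each group has 1 library. Gyg, with 126 to 203 counts, has the widest intervals.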
